A study of Mus musculus with 10 samples.

Results

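MHC class I and peptide loading genes were followed in mouse pancreatic cancer-associated fibroblasts sorted by surface CD90. The 10 genes were fixed by name. They are the heavy chains H2-K1 and H2-D1, the light chain B2m, the peptide transporter subunits Tap1 and Tap2, the loading factor Tapbp, the inducible proteasome subunits Psmb8, Psmb9 and Psmb10, and the transcriptional activator Nlrc5. They are 10 of 48471 genes to which reads could be assigned. Of these, 9 passed the filter on low counts and were among the 15378 genes tested, and Psmb9 did not pass it. Estimated reads were summed over all transcripts of each gene.

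Class I molecules carry short peptides from proteins made inside a cell to its surface, where CD8 T cells inspect them. The proteasome cuts the peptides, and inflammatory signals such as interferon gamma exchange its catalytic subunits for inducible ones, which gives the immunoproteasome. The TAP transporter moves the peptides into the endoplasmic reticulum, where tapasin, the product of Tapbp, bridges TAP to a heavy chain held by the light chain beta-2 microglobulin. NLRC5 drives the transcription of class I heavy chain genes and of B2m, together with factors bound at the X and Y boxes of their promoters.

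The samples were CD90- and CD90+ myofibroblastic cancer-associated fibroblasts, with 5 libraries of each. Both fractions came from the same tumours, pancreatic ductal adenocarcinomas that grew in C57BL/6J mice from orthotopically transplanted KPC T-LOH organoids. The libraries form 5 tumour pools, paired by the animal numbers that both fractions share, and pools 1 to 5 hold 4, 1, 2, 3 and 1 animals by their titles. The titles therefore name 11 animals where the design text counts 5 male mice, so n is given as pools. Neither ages nor further markers of the sorting gate were given in the labels used here.

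Thy1, which encodes CD90, checked the sort. It had 2.07 to 16.0 CPM in CD90- libraries, against 39.2 to 116.6 CPM in CD90+ libraries, with a log2 fold of -3.50 (SE 0.50, edgeR adjusted p = 0.0056). CPM are counts-per-million of the library size scaled by TMM, a normalization that lets most genes balance, and a log2 fold is CD90- over CD90+. Totals were 33.3 to 47.7 M estimated counts (M, mega) in CD90- libraries and 11.7 to 38.2 M in CD90+ libraries. Nuclear protein-coding genes held 3.71 to 19.8 M of these in CD90- libraries and 4.57 to 28.5 M in CD90+ libraries. Mitochondrial rRNA took 35.6% to 84.4% of assigned counts in CD90- libraries and 10.5% to 44.8% in CD90+ libraries. Fibroblast markers were called lower in CD90- cells for 9 of 10 genes, and all 10 were lower in every pool. Their median log2 fold was -2.26, with summed levels of 4061 to 20470 CPM in CD90- libraries against 32461 to 54048 CPM in CD90+ libraries. Cancer epithelial markers were called higher for 7 of 12 tested genes, and 0 of the 12 had a fold below 0. Their median log2 fold was 2.32, with summed levels of 728 to 3260 CPM in CD90- libraries against 185 to 1723 CPM in CD90+ libraries. Macrophage markers summed to 24.5 to 60.7 CPM in CD90- libraries and to 10.7 to 21.9 CPM in CD90+ libraries. Their median log2 fold was 1.64 and 0 of 9 tested had a fold below 0, and 1 of the 9, Mrc1, was called higher. Endothelial markers summed to 33.6 to 271.8 CPM in CD90- libraries and to 27.9 to 38.4 CPM in CD90+ libraries. Their median log2 fold was 2.60, with 3 of 8 called higher and 1 of 8 at a fold below 0. Ptprc, the phosphatase on the surface of all white blood cells, had 0.235 to 2.35 CPM in CD90- libraries and 0 to 0.952 CPM in CD90+ libraries. T and NK cell markers summed to 1.76 to 7.05 CPM against 1.34 to 3.82 CPM, B cell markers to 0 to 1.33 CPM against 0 to 0.606 CPM, and dendritic cell markers to 3.69 to 11.2 CPM against 3.24 to 16.0 CPM, in CD90- against CD90+ libraries. Cd8a, Ncr1, Nkg7 and Cd209a were at 0 in every library. Mesothelial markers had a median log2 fold of -1.42, with 1 of 6 called, higher, and summed to 155 to 274 CPM in CD90- libraries and 191 to 303 CPM in CD90+ libraries. Pericyte markers had a median of -1.43, with 0 of 6 called by edgeR (5 at an unadjusted p under 0.05), and acinar markers of 2.57, with 1 of 4 called higher. The part of the epithelial, fibroblast, macrophage, endothelial, mesothelial, pericyte and acinar markers in the results on class I genes was not tested, and a fit with the mitochondrial share as covariate is given beside the calls. In sorted bulk samples, fewer cells of a type and less RNA per cell cannot be told apart.

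The promoters of both heavy chains and of the light chain hold the letters of the X2 and Y boxes in a common arrangement, and these 3 stretches are shown because the 3 genes encode the complex that reaches the surface. RefSeq windows of 300 bases (250 before to 50 after each start, GRCm38.p6) were found for 8 of the 10 genes. In H2-K1, H2-D1 and B2m the X2 core TGACG was followed by the Y box ATTGG on the same strand with 20 bases between them. Such a pair, at 15 to 30 bases, stood in the windows of 0.648% of 27025 genes. The IRF core AANNGAAA, searched on both strands, was in the same 3 windows and in those of 26.7% of all genes. Capitals in the stretches mark the IRF core, the X2 core and the Y box in this order, and each reads 5′ to 3′ on the strand of the gene. The H2-K1 stretch is chr17:34000339-34000463 on the minus strand, that of H2-D1 is chr17:35262918-35263042 on the plus strand, and that of B2m is chr2:122147534-122147658 on the plus strand.
H2-K1: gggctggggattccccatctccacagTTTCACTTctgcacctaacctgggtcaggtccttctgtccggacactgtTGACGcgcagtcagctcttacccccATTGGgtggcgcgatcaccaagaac
H2-D1: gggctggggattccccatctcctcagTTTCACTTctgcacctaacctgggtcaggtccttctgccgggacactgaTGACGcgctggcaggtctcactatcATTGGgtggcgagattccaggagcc
B2m: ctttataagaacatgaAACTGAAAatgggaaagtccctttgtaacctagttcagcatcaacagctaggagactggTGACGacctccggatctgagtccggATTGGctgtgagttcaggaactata

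Tap1 and Psmb9 lie head to head on chromosome 17. Their RefSeq start sites are 226 bases apart, and their promoter windows share 275 bases. The 225 bases between the starts, chr17:34187331-34187555 in GRCm38.p6, are shown on the strand of Tap1 because both genes start at their ends. Capitals mark 1 Y box, here on the opposite strand, and 1 X2 core, which do not form a pair as above.
Tap1 and Psmb9: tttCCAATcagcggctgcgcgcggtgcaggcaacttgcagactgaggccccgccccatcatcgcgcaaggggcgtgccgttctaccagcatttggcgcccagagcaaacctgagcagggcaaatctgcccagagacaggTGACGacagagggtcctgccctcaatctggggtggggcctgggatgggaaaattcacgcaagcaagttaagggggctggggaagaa

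The windows of Tapbp, Psmb8 and Psmb10 held no such pair either. These matches describe the letters and say nothing of binding.

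Of the 9 class I and peptide loading genes tested, 3 were lower in CD90- than in CD90+ cells and 6 did not pass the test. The 3 were H2-K1, Tapbp and Psmb8, and 0 were called higher (edgeR quasi-likelihood test with the pool as a block, adjusted p under 0.05). Across all genes tested, 7.05% were called lower and 5.83% higher, 12.9% in all. The fitted fold was below 0 for 9 of 9 tested genes, with a median log2 fold of -0.90, whereas 48.0% of all genes tested had a fold below 0 and their median was 0.04. The genes H2-K1, H2-D1, Tap2, Tapbp and Psmb8 were lower in all 5 pools, as were 14.5% of all genes tested, and 0 of the 9 were higher in all 5 pools, against 13.5% of all genes tested. Groups did not overlap for 0 of the 9, against 4.62% of all genes tested that were lower without overlap and 3.32% that were higher. Leaving out 1 pool changed the calls: edgeR called 0 of the 9 without pool 1 (5 at an unadjusted p under 0.05), 0 without pool 2 (6 unadjusted) and 1 (Tap2) without pool 5, and without the block for the pool it called H2-K1 and Psmb8. Without pool 1 the log2 folds were -0.82 for H2-K1, -0.63 for Tapbp and -1.20 for Psmb8, and 675 of all genes were called in place of 1980. When the share of mitochondrial rRNA was added as a covariate, edgeR called 0 of the 9 (6 at an unadjusted p under 0.05) and 0 of all genes (882 unadjusted). That share was higher in the CD90- library of each pool. Thy1, the check of the sort, was not called in that fit either (log2 fold -4.12, edgeR adjusted p = 0.751). Because the share ran along with the fraction, the lost calls cannot tell the share from the fraction. The 9 folds in that fit were all below 0, with a median log2 fold of -1.53, while the median of all genes was 0.15. H2-K1 had -1.66, Psmb8 -2.51 and Tap1 -4.64, whereas Tapbp had -0.59, Tap2 -0.86 and Nlrc5 -0.28. DESeq2, with the block alone, called 6 of the 9.

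**Figure D1:**
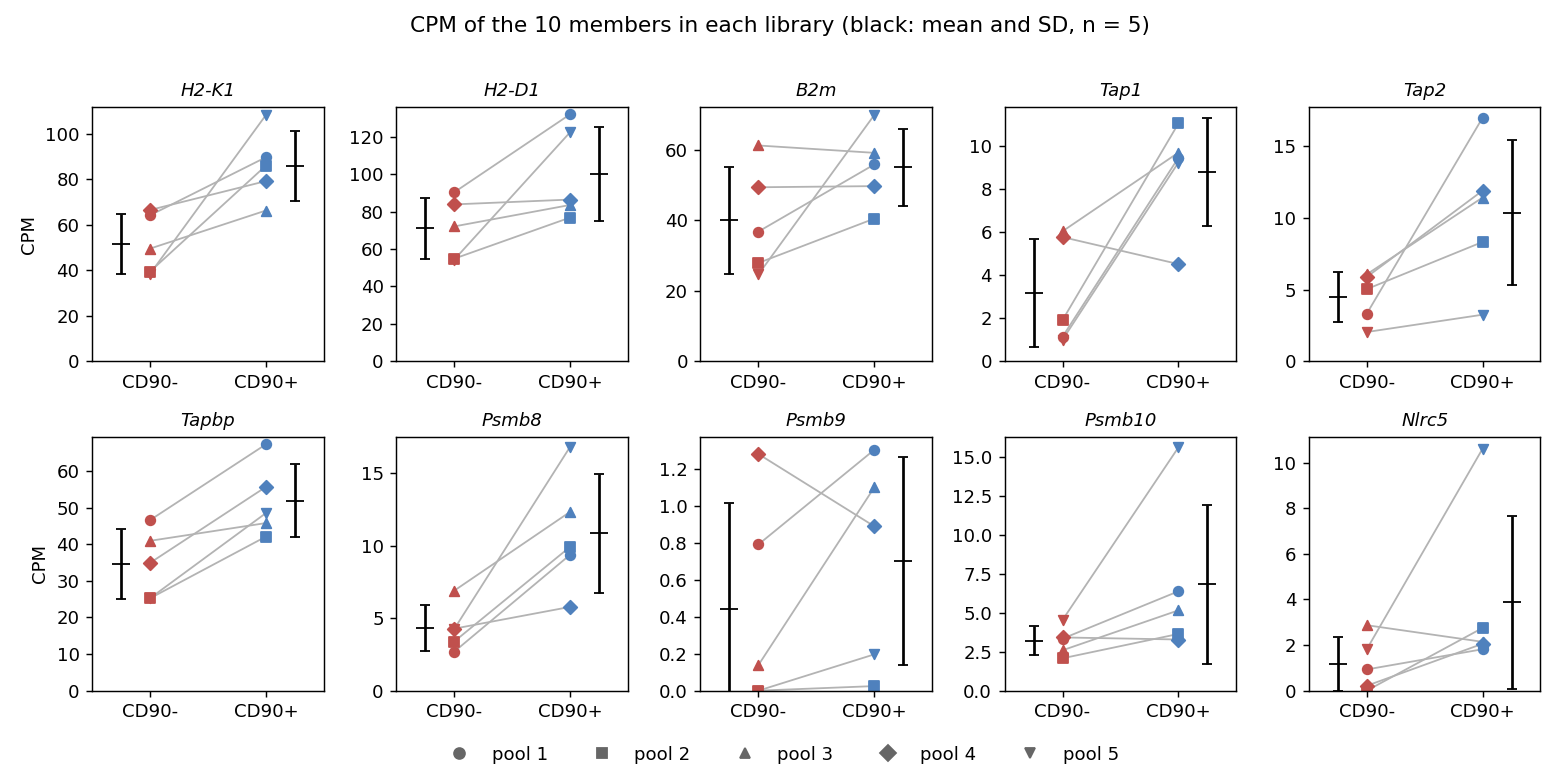
CPM of each of the 10 genes in the 5 CD90- (red) and 5 CD90+ (blue) libraries, with lines joining the libraries of a pool and black bars for mean and SD (n = 5 each), which are cut off at 0 for Psmb9 and Nlrc5. H2-K1, H2-D1, Tap2, Tapbp and Psmb8 slope upward to CD90+ in all 5 pools, and the y axes differ between panels.

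**Figure D2:**
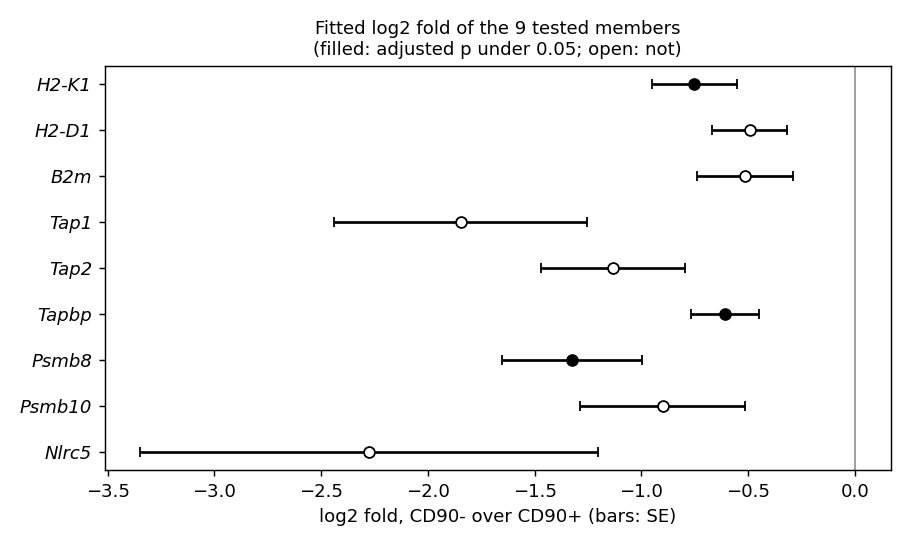
Fitted log2 fold, CD90- over CD90+, of the 9 tested genes, with bars for the SE. Filled points (H2-K1, Tapbp and Psmb8) have an adjusted p under 0.05, and all 9 points lie below 0, from -2.28 for Nlrc5 to -0.49 for H2-D1.

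Values of single libraries are in the order of pools 1 to 5. H2-K1 (ENSMUSG00000061232, chromosome 17), a classical heavy chain, was lower in CD90- cells. It had 64.2, 39.4, 49.5, 66.5 and 38.5 CPM in the CD90- libraries of pools 1 to 5, against 89.8, 86.1, 66.3, 79.3 and 108.4 CPM in the CD90+ libraries. Of the CD90- libraries, 4 lay below every CD90+ library, and that of pool 4 stood level with the CD90+ library of pool 3. The mean was 51.6 ± 13.3 CPM in CD90- and 85.96 ± 15.4 CPM in CD90+ cells (SD, n = 5 each), a log2 fold of -0.75 (SE 0.20, edgeR adjusted p = 0.035). The call was lost without pool 1, 2 or 5 and with an offset for transcript length.

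H2-D1 (ENSMUSG00000073411, chromosome 17), the other classical heavy chain of this strain, did not pass the test. Its levels were 90.4, 54.9, 72.1, 83.9 and 54.3 CPM in the CD90- libraries of pools 1 to 5, against 132.2, 76.9, 83.6, 86.5 and 122.6 CPM in the CD90+ libraries. The CD90- library lay below its partner in each of the 5 pools, but by little in pool 4, and the groups overlapped. The log2 fold was -0.49 (SE 0.18, edgeR adjusted p = 0.101). Heavy chain genes resemble each other, and Salmon's model divides reads that match several. Of the stretches of 31 bases in the most used coding transcript, 23.3% for H2-K1 and 27.5% for H2-D1 also occurred in transcripts of other genes (GENCODE M21), so the division between them and other class I genes is uncertain.

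B2m (ENSMUSG00000060802, chromosome 2), the light chain that every class I heavy chain needs, did not pass either. CD90- libraries of pools 1 to 5 held 36.8, 27.9, 61.2, 49.3 and 24.6 CPM of B2m, and CD90+ libraries held 55.8, 40.4, 59.1, 49.7 and 69.8 CPM. Pools 3 and 4 showed nearly the same level in both fractions, and pools 1, 2 and 5 the lower level in CD90- cells. Its log2 fold was -0.51 (SE 0.22, edgeR adjusted p = 0.175). The ratio of B2m to the sum of both heavy chains, in reads per effective length, was 0.549, 0.603, 1.00, 0.748 and 0.530 in CD90- libraries and 0.603, 0.683, 1.02, 0.718 and 0.759 in CD90+ libraries. The log2 ratio differed by -0.16 ± 0.22 (SD of 5 pools; exact paired permutation test by sign flips, two-sided p = 0.188, adjusted p = 0.188 over 3 ratios). In raw counts the difference turned to 0.09, so no direction is given. The smallest p that 5 pools allow is 0.0625.

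Tapbp (ENSMUSG00000024308, chromosome 17) was the loading gene that passed the test. It had 46.6, 25.2, 40.9, 34.9 and 25.3 CPM in CD90- libraries, against 67.3, 42.1, 45.8, 55.7 and 48.5 CPM in CD90+ libraries, in the order of pools 1 to 5. Each CD90- library was below its partner, and 4 of 5 were below every CD90+ library. The mean was 34.6 ± 9.48 CPM in CD90- and 51.9 ± 9.96 CPM in CD90+ cells (SD, n = 5 each), a log2 fold of -0.61 (SE 0.16, edgeR adjusted p = 0.034). Leaving out the block, leaving out pool 1, 2, 4 or 5, or a length offset ended the call.

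Both subunits of the peptide transporter had larger fitted differences than Tapbp but did not pass. Tap1 (ENSMUSG00000037321, chromosome 17) had 1.14, 1.91, 6.04, 5.77 and 0.997 CPM in the CD90- libraries of pools 1 to 5, against 9.46, 11.1, 9.70, 4.51 and 9.23 CPM in the CD90+ libraries. The CD90- library was far below its partner in pools 1, 2 and 5, below it in pool 3, and above it in pool 4. The log2 fold was -1.85 (SE 0.59, edgeR adjusted p = 0.070), and without pool 4 it was called lower. Tap2 (ENSMUSG00000024339, chromosome 17) had 3.30, 5.03, 6.06, 5.87 and 2.03 CPM in CD90- libraries, against 17.0, 8.32, 11.4, 11.9 and 3.24 CPM in CD90+ libraries. It was lower in CD90- cells in all 5 pools, and the overlap came from the CD90+ library of pool 5. The log2 fold was -1.13 (SE 0.34, edgeR adjusted p = 0.054). With an offset for transcript length it was -0.78 (edgeR adjusted p = 0.362). A transcript that keeps an intron held 46.8% of Tap2 reads in CD90- and 53.4% in CD90+ libraries. In single libraries its share ran from 0% to 100% in CD90- and from 0% to 94.2% in CD90+ cells.

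Psmb8 (ENSMUSG00000024338, chromosome 17), an inducible subunit that takes the place of Psmb5 in the immunoproteasome, was lower in CD90- cells. It had 2.69, 3.39, 6.89, 4.27 and 4.25 CPM in the CD90- libraries of pools 1 to 5, against 9.36, 9.91, 12.3, 5.77 and 16.8 CPM in the CD90+ libraries. All 5 pools went the same way, and 4 of the CD90- libraries were below every CD90+ library. The mean was 4.30 ± 1.59 CPM in CD90- and 10.8 ± 4.08 CPM in CD90+ cells (SD, n = 5 each), 2.51-fold lower (log2 fold -1.33, SE 0.33, edgeR adjusted p = 0.027). The call was lost without pool 1, 2 or 5.

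Psmb10 (ENSMUSG00000031897, chromosome 8), which takes the place of Psmb7, had 3.34, 2.08, 2.59, 3.42 and 4.54 CPM in CD90- libraries and 6.38, 3.64, 5.16, 3.28 and 15.6 CPM in CD90+ libraries. The CD90+ library of pool 5 stood far above the others, and pool 4 showed no lower level in CD90- cells. The log2 fold was -0.90 (SE 0.38, edgeR adjusted p = 0.166). Psmb9 (ENSMUSG00000096727, chromosome 17), which takes the place of Psmb6, was at the edge of detection. It had 23, 0, 7, 12 and 0 reads in CD90- libraries, against 28, 1, 73, 29 and 2 reads in CD90+ libraries. The 0 reads in the CD90- libraries of pools 2 and 5 allow up to 0.101 and 0.111 CPM (3 counts, counting error only). In pool 3 it had 0.139 CPM in the CD90- and 1.10 CPM in the CD90+ library, and in pool 4 it had 1.28 CPM in the CD90- and 0.890 CPM in the CD90+ library. Fitted with no filter on low counts, Psmb9 had a log2 fold of -1.73 (SE 1.54, edgeR adjusted p = 0.764).

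The constitutive subunits that these genes replace did not pass the test. Psmb5 had a log2 fold of -0.09, Psmb6 of -0.15 and Psmb7 of 0.37, with edgeR adjusted p values of 0.892, 0.659 and 0.292. The ratio of Psmb8 to Psmb5, in reads per effective length, was 0.254, 0.271, 0.745, 0.311 and 0.643 in the CD90- libraries of pools 1 to 5, against 0.627, 0.684, 0.990, 0.487 and 9.55 in the CD90+ libraries. It was lower in CD90- cells in 5 of 5 pools, with a mean log2 difference of -1.52 ± 1.39 (SD; exact paired permutation test, two-sided p = 0.0625, adjusted p = 0.188). The highest ratio came from the CD90+ library of pool 5, with 171 reads of Psmb8 and 37 of Psmb5. Without that pool the difference was -0.92, and in raw counts over all pools it was -1.26. A Psmb8 transcript of only 358 bases held 3.95% of Psmb8 reads over the CD90+ libraries, but from 0% to 41.1% in single ones. The ratio per effective length thus also depends on how reads were divided among transcripts. For Psmb10 to Psmb7 the ratio was 0.194, 0.119, 0.151, 0.314 and 0.529 in CD90- libraries, against 0.478, 0.338, 0.280, 0.303 and 1.77 in CD90+ libraries. It was lower in 4 of 5 pools, by a mean log2 difference of -1.08 ± 0.71 (SD; exact paired permutation test, two-sided p = 0.125, adjusted p = 0.188). Psmb9 to Psmb6 was at 0 in 2 CD90- libraries and was not tested.

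**Figure D3:**
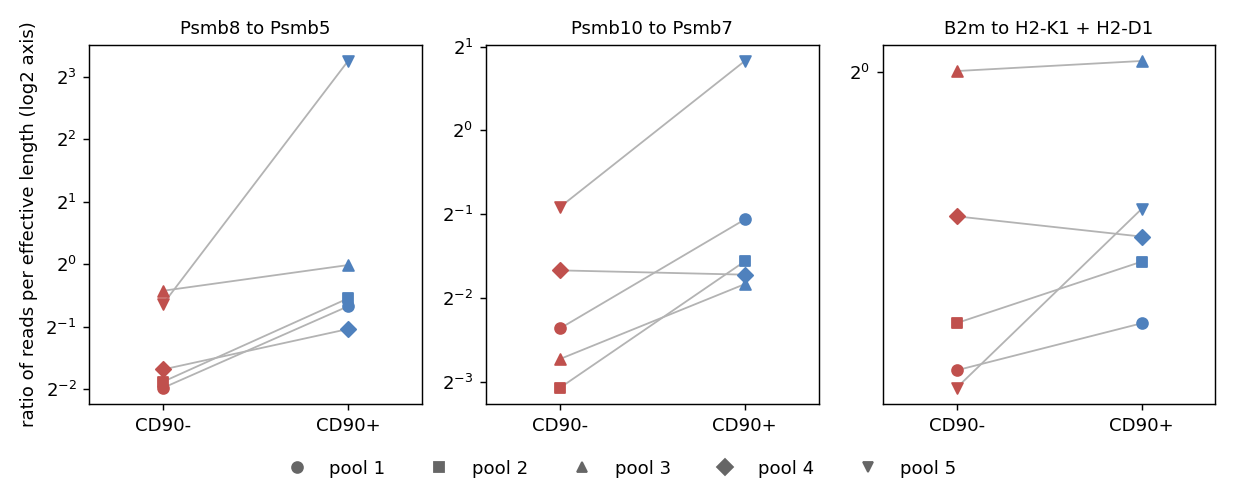
Ratios of reads per effective length in the CD90- (red) and CD90+ (blue) library of each pool, on a log2 axis, for Psmb8 to Psmb5, Psmb10 to Psmb7 and B2m to the sum of H2-K1 and H2-D1. The CD90+ library of pool 5 has the highest values of both proteasome ratios, 9.55 and 1.77.

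Nlrc5 (ENSMUSG00000074151, chromosome 8) was scarce in both fractions. It had 0.929, 0, 2.87, 0.214 and 1.81 CPM in the CD90- libraries of pools 1 to 5, from 27, 0, 145, 2 and 49 reads, against 1.82, 2.75, 2.14, 2.06 and 10.6 CPM in the CD90+ libraries. The CD90- library of pool 3 was above its partner, those of the other pools were below, and the CD90+ library of pool 5 stood apart. The log2 fold of -2.28 (SE 1.07, edgeR adjusted p = 0.211) includes a CD90- library at 0 reads, so its size depends on the prior count of the fit. Without pool 2 the log2 fold was -1.48 and without pool 3 it was -3.08, and neither was called by edgeR.

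Levels per length placed the surface chains above the loading and processing genes. On a TPM scale recomputed over nuclear protein-coding genes, B2m averaged 271.2 ± 106.3 in CD90- and 381.4 ± 59.2 in CD90+ cells (SD, n = 5 each). H2-K1 averaged 228.3 ± 38.1 TPM in CD90- and 297.6 ± 57.3 TPM in CD90+ cells, and H2-D1 161.5 ± 33.6 TPM in CD90- and 216.4 ± 43.7 TPM in CD90+ cells. Tapbp averaged 74.7 ± 20.6 TPM in CD90- and 97.96 ± 20.6 TPM in CD90+ cells. H2-K1 was above H2-D1, and H2-D1 above Tapbp, in 10 of 10 libraries, and B2m was above H2-K1 in 8. In CPM, H2-D1 had the higher mean, 71.1 against 51.6 for H2-K1 in CD90- and 100.4 against 85.96 in CD90+ cells. The order of the heavy chains thus depends on the lengths of the transcripts among which reads were divided. The share of H2-K1 reads in its most used coding transcript ran from 12.6% to 86.7% in CD90+ libraries. Below these, Psmb8 averaged 23.3 ± 10.9 TPM in CD90- and 76.98 ± 72.3 TPM in CD90+ cells, where the library of pool 5 was highest at 204.9 TPM and the mean of the other 4 pools was 44.995 TPM. Psmb10 and Tap2 averaged 18.4 and 14.5 TPM in CD90- and 27.1 and 19.5 TPM in CD90+ cells. Tap1 ran from 1.70 to 20.03 TPM in CD90- and from 6.83 to 39.9 TPM in CD90+ libraries. Nlrc5 ran from 0 to 7.68 TPM in CD90- and from 1.28 to 23.2 TPM in CD90+ libraries, and Psmb9 from 0 to 7.93 TPM in CD90- and from 0.454 to 8.19 TPM in CD90+ libraries. The order within the lower 5 genes changed between libraries, with Psmb10 above Tap2 in 6 of 10, Tap2 above Tap1 in 6, Tap1 above Nlrc5 in 8 and Nlrc5 above Psmb9 in 4.

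The size of the difference varied between pools. The median difference of log2 CPM over the 9 tested genes, CD90- minus CD90+, was -0.92, -0.79, -0.42, -0.25 and -1.50 in pools 1 to 5. In pools 1, 2 and 5 all 9 genes were lower in CD90- cells, and in pools 3 and 4 it was 7 of 9. Interferon response genes had medians of -1.29, -1.20, -0.42, -0.62 and -1.96 in the same pools. Fibroblast markers had medians of -2.27, -2.83, -0.77, -1.85 and -3.46, and cancer epithelial markers of 3.85, 0.54, 2.93, 2.92 and 1.04. The class I and the fibroblast medians were both lowest in pool 5, and closest to 0 in pool 4 for the class I genes and in pool 3 for the fibroblast markers. All these medians share the same libraries and are given as a description.

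**Figure D4:**
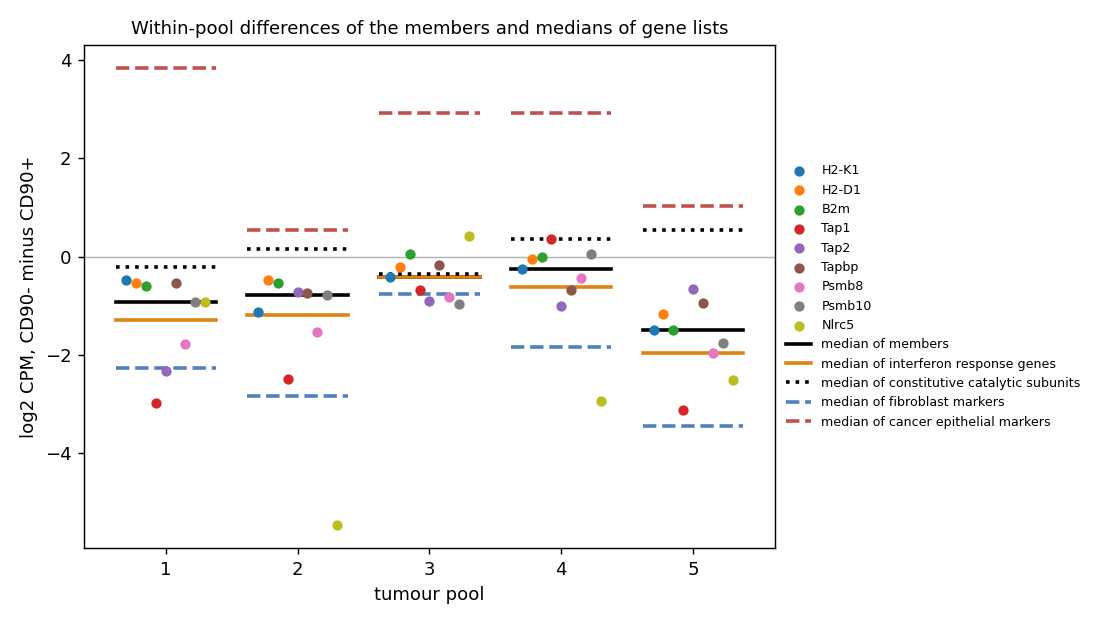
Difference of log2 CPM, CD90- minus CD90+, in each tumour pool for the 9 tested genes (points) and the medians of gene lists (lines). The class I median runs from -1.50 in pool 5 to -0.25 in pool 4, above the fibroblast median (dashed blue) in every pool and below the epithelial median (dashed red).

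Among the nonclassical class I genes, H2-Q4, H2-Q7, H2-T23 and Fcgrt were lower in CD90- cells. Of 19 listed nonclassical and class I-like genes 13 were tested, 4 were called lower and 0 higher, and their median log2 fold was -1.43. Over all genes tested, 7.05% were called lower and 5.83% higher. Of the 13, 4 were lower without overlap of the groups, not the same 4 as those called, against 4.62% of all genes tested. H2-Q4 had 7.64, 4.16, 10.3, 8.01 and 5.62 CPM in CD90- libraries, against 28.4, 19.97, 16.1, 12.3 and 25.9 CPM in CD90+ libraries, without overlap (log2 fold -1.53, SE 0.32, edgeR adjusted p = 0.013). Fcgrt, the heavy chain of the neonatal Fc receptor, which recycles IgG and also pairs with B2m, averaged 7.95 ± 4.16 CPM in CD90- and 22.3 ± 1.84 CPM in CD90+ cells (SD, n = 5 each; log2 fold -1.64, SE 0.34, edgeR adjusted p = 0.013), also without overlap. H2-T23, which encodes Qa-1, a ligand of the NKG2A receptor, had a log2 fold of -1.49 (SE 0.39, edgeR adjusted p = 0.033), also without overlap. H2-Q7 had a log2 fold of -1.73 (SE 0.43, edgeR adjusted p = 0.026), and its groups overlapped. H2-Q4 and Fcgrt were also called without the block, and H2-T23 and H2-Q7 were not. Without pool 1, 0 of the 4 were called. Fcgrt was also not called without pool 4, H2-T23 without pool 2 or 5, and H2-Q7 without pool 2, 4 or 5. H2-Q genes share sequence with the classical heavy chains, so their reads are uncertain in the same way.

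Of 12 loading and trimming partners 1 was called lower and 0 higher, with a median log2 fold of -0.03, and over all genes tested 7.05% were called lower. It was Calr, the chaperone calreticulin, at 355.4 ± 32.7 CPM in CD90- and 551.9 ± 141.5 CPM in CD90+ cells (SD, n = 5 each; log2 fold -0.60, SE 0.17, edgeR adjusted p = 0.042), a call that ended without the block, without pool 1, 2, 3 or 4, with upper-quartile normalization and with the length offset. Of 5 tested proteasome activator and assembly genes 0 were called in edgeR (0 at an unadjusted p under 0.05), 0 in DESeq2 and 0 in limma-voom. Psme4 had a log2 fold of 0.25 and Psme2, a subunit of the PA28 activator, of -0.18, with edgeR adjusted p values of 0.454 and 0.653.

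Among 24 enhanceosome and interferon pathway regulators, 2 were called lower and 1 higher, with a median log2 fold of -0.03. Over all genes tested, 7.05% were called lower and 5.83% higher. Nfkb1, an NF-kB subunit, had 52.7, 65.7, 108.5, 76.4 and 31.8 CPM in CD90- libraries, against 116.8, 86.8, 127.1, 121.8 and 50.004 CPM in CD90+ libraries (log2 fold -0.62, SE 0.16, edgeR adjusted p = 0.032). Ifngr1, the ligand-binding chain of the interferon gamma receptor, went the other way, at 37.9 ± 10.7 CPM in CD90- and 23.05 ± 9.80 CPM in CD90+ cells (SD, n = 5 each; log2 fold 0.76, SE 0.20, edgeR adjusted p = 0.033). Leaving out the block or pool 1, 2 or 4, and a length offset, each ended the calls of Nfkb1 and Ifngr1, and leaving out pool 5 ended that of Nfkb1. The subunits of the RFX complex, through which NLRC5 reaches the X box, Rfx5, Rfxap and Rfxank, had log2 folds of -0.13, 0.18 and -0.21 and were not called.

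Of 18 interferon response genes 17 were tested, 2 were called lower and 0 higher, and the median log2 fold was -1.18. Over all genes tested, 7.05% were called lower and 5.83% higher. Of the 17, 3 were lower without overlap of the groups, as were 4.62% of all genes tested. Gbp3 and Gbp7, guanylate-binding proteins induced by interferon gamma, had log2 folds of -1.45 (SE 0.35) and -1.18 (SE 0.29), with edgeR adjusted p values of 0.025 and 0.026, and neither had overlapping groups. Both were also called without the block and neither without pool 1, and Gbp7 was not called without pool 2 or 4 or with the length offset. Of 8 MHC class II genes 6 were tested, 1 was called lower and 1 higher, and the median log2 fold was 0.89. Cd74, the invariant chain, had 16.9, 5.80, 7.58, 11.4 and 14.4 CPM in CD90- libraries, against 6.01, 3.30, 5.56, 3.71 and 4.62 CPM in CD90+ libraries (log2 fold 1.20, SE 0.30, edgeR adjusted p = 0.029), a call that ended without pool 1, 4 or 5 and with the length offset. H2-DMb1, a chain of the class II peptide editor, had a log2 fold of -2.99 (SE 0.87, edgeR adjusted p = 0.0499), a call that ended with no block, without pool 1, 2, 4 or 5, with limma-voom, with the length offset, with mitochondrial genes left out and with unmatched transcripts kept.

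Genes with the most similar pattern over the pools were found by the root mean square distance between their 5 differences of log2 CPM and the median of the class I genes, among 7225 other genes whose mean log2 CPM reached 3. The closest 5 were Ercc5, a DNA repair nuclease (0.159), Mtfr1l (0.161), Jmjd6 (0.193), the lactate transporter Slc16a3 (0.203) and Cep112 (0.217). Their log2 folds lay between -0.85 for Ercc5 and -0.64 for Jmjd6, values that the choice of genes by their pool differences fixes.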

How the data were processed

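RNA from 10 libraries of sorted fibroblasts was sequenced after a low-input stranded preparation, per the labels' protocols, from 0.1 to 1.2 ng of RNA with integrity numbers of 3.1 to 8.7. The authors deposited an estimated count, a TPM value and lengths for each transcript, made with Salmon 1.9.0 against builds named GRCm39 and mm39, per the submitters' processing notes. The annotation release and strand setting were not given in the sources used here. TPM as deposited were not used. A TPM scale was recomputed from estimated counts and effective lengths over nuclear protein-coding genes.

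Of 144584 transcripts, 133666 matched GENCODE M21 (GRCm38) by identifier and gave gene names. The others held 3.63% to 12.1% of the counts of a library and were left out. Counts were summed per gene and rounded. edgeR 4.0.16 in R 4.3.3 (filterByExpr, TMM, glmQLFit with robust estimation, glmQLFTest) was run on all genes with the pool as a block and Benjamini-Hochberg adjustment at 0.05, and limma 3.58.1 and DESeq2 1.42.0 served as alternatives. The SE follows from the F statistic, and per-pool differences use log2 CPM with a prior count of 2. The block rests on shared animals: the correlation between both libraries of a pool in their deviations from the group means was 0.06, 0.00, 0.46, 0.03 and 0.19. Ratios were tested by sign flips over pools. Code was tested on simulated counts. PCR without molecular identifiers makes reads non-independent, so limits cover counting error only.

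The members and lists were chosen with earlier results of these data known. Genes were named by rule: the members, called genes of the pathway lists, the 2 with the smallest p of lists with no call, the 5 closest in pattern, and Thy1. Psmb5, Rfx5, Rfxap, Rfxank, Mrc1 and Ptprc were named beside them. Values of some genes are not printed. The ratio with Psmb9 could not be formed at 0 reads. RefSeq promoter windows belong to GRCm38.p6 and were matched by symbol.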

Additional observations from a re-analysis of the deposited data

Results flagged for a closer look

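Of 28 groups of 5 libraries examined (the 10 genes and 4 ratios in each fraction), 5 held a library far from the others, where the gap to the nearest library was over 0.71 of the range. Chance flags about 1 in 20 groups where these are independent and normally distributed. The groups here share libraries and genes, so their count cannot be set against that rate. In 4 of the 5 flagged groups it was the CD90+ library of pool 5, which has the lowest total count. There Psmb10 was at 15.6 CPM, Nlrc5 at 10.6 CPM, the ratio of Psmb8 to Psmb5 at 9.55 and the ratio of Psmb10 to Psmb7 at 1.77, each above the other CD90+ libraries. In the CD90+ library of pool 4, Tap1 was low, at 4.51 CPM.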

How the results depend on the processing

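No gene of the class I list changed direction under any alternative. Of 9 tested genes 3 were called, against 6 with DESeq2, 5 with no filter on low counts, 1 with a transcript length offset, and 0 with the share of mitochondrial rRNA as covariate (6 at an unadjusted p under 0.05), without pools 4 and 5 together (6 unadjusted) or at a threshold of 0.01 (8 unadjusted). Leaving out 1 pool gave 0 to 3. Without the replicate block 2 were called. In some alternatives, such as no filter, without pool 2 or without pool 5, Psmb9 was tested as well, 10 genes in all, and was not called. Of 80 other pathway genes 12 were called, against 5 without the replicate block, 23 with DESeq2, 21 with no filter, 6 with the length offset, 0 with the covariate (5 unadjusted), 1 without pools 4 and 5, 0 at a threshold of 0.01 (24 unadjusted), and 0 to 14 without 1 pool. Over all genes 1980 were called, against 965 without the replicate block, 3452 with DESeq2, 0 with the covariate (882 unadjusted), in which the median log2 fold was -1.53 over the class I genes and 0.15 over all genes, 541 without pools 4 and 5 (184 lower and 357 higher), about 7.0e+02 at a threshold of 0.01, and 675 to 2019 without 1 pool. With the covariate, Thy1, the check of the sort, was not called either. The causes were not tested. The log2 ratio of B2m to the heavy chains turned to 0.093 in raw counts, and the proteasome ratios stayed below 0 in all alternatives run. Psmb9 and Nlrc5 rest on few reads, and alternatives for the ratio of Psmb9 to Psmb6 were not run because it is 0 in 2 libraries.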
